A study of Mus musculus with 48 samples.

Results

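Acod1 (ENSMUSG00000022126) encodes the mitochondrial enzyme that makes itaconate, and its transcript was followed here through 12 groups of mouse bone marrow-derived macrophages. It is 1 of 49315 genes in the count table and 1 of 13986 that passed the filter on low counts. The gene was chosen on these same data, because its response ratio to ligand was larger in macrophages that lack Lyn (LynKO) and started from a lower level. The LynKO levels and responses of Acod1 are therefore given as a description, with no test. Acod1 was tested in WT, in the mice that lack a single Lyn isoform (LynAKO, LynBKO), and between both ligands.

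Lyn is a Src family tyrosine kinase of myeloid and B cells, made as the splice isoforms LynA and LynB. The study compared 4 genotypes, WT, LynAKO, LynBKO and total LynKO, with 4 mice of each (2 male and 2 female), 16 mice in all. Marrow cells were differentiated for 7 days with M-CSF from conditioned medium and rested overnight without it. Each culture then stayed for 2 h in M-CSF-free medium alone (NT) or received 2 ng/mL LPS of S. minnesota R595, a ligand of TLR4, or 20 ng/mL R848, a ligand of TLR7. This gave 48 polyA libraries in 12 groups of 4, with the rest from M-CSF common to all. The labels give no strain, age or allele design. Because the libraries are of bulk cultures, fewer cells that express a gene and less RNA per cell cannot be told apart.

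Acod1, also called Irg1, takes cis-aconitate out of the citric acid cycle and decarboxylates it to itaconate. The gene is among those most strongly induced by Toll-like receptor ligands and interferons. Itaconate inhibits succinate dehydrogenase, modifies cysteines of proteins such as KEAP1, and starves some bacteria by blocking isocitrate lyase.

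Total counts were 14974764 to 23321447 per library. Lyn itself stood at 177 ± 10.4 CPM (library-scaled counts, TMM, mean ± SD, n = 4) in WT without ligand, 118 ± 11.5 in LynAKO, 125 ± 6.38 in LynBKO and 67.6 ± 4.15 in LynKO, which keeps reads of the gene. The 4 ranges did not overlap between WT, the single-isoform mice and LynKO. The macrophage genes Adgre1 and Cd68 were present in every group, at 1325 and 1056 CPM in WT without ligand. Sex transcripts matched the labels except in LynBKO NT 4 and LynKO NT 4, which are labelled female and hold both Xist and Y-linked transcripts. In LynBKO the sexes of NT 2 and NT 3 are exchanged against the ligand-treated libraries of the same numbers, so mouse by mouse ratios are not given for that genotype. Without those 2 mixed libraries the LynKO minus WT difference of Acod1 in NT was -1.82 on the log2 scale, against -1.80 with them.

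The gene lies on the plus strand of chromosome 14, chr14:103046977-103056573 in GRCm38, and spans 9597 bases. Its 5 exons hold 2623 bases, of which 1464 are coding, with 91 bases of 5′ UTR and 1068 bases of 3′ UTR. No other annotated gene overlaps it, so its reads are not shared with an overlapping or antisense gene of that annotation. The stretch in front of the first exon is shown because it is where an inducible gene of this kind is read from. It covers chr14:103046762-103046976 (plus strand, 5′ to 3′, from the RefSeq promoter table of GRCm38.p6), and capitals mark the sequence GGAAATTCC.

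Acod1 upstream stretch: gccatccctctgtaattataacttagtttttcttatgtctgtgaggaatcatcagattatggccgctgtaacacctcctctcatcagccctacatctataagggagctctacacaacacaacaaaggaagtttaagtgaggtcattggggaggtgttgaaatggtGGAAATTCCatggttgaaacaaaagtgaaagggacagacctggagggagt

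The sequence GGAAATTCC stands at 103046927 to 103046935, 76 bases before the RefSeq start. It was looked for after the sequence had been read, and 0.317% of 32851 promoters of 300 bases hold it. A TATAAA was found 22 bases before the RefSeq start, at 103046984 to 103046989, just past the printed stretch, and 13.6% of the promoters hold one. On both strands of the 300 bases there was no match to the strict NF-kB consensus (8.46% of promoters), the ISRE core GAAANNGAAA (3.44%), the GAS element TTCNNNGAA (8.3%), the AP-1 site TGANTCA (7.81%) or the E-box CACGTG (7.15%). These are letters in a window, and no binding was measured.

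In WT macrophages Acod1 went from a mean of 57.9 CPM to among the most abundant transcripts of the cell within 2 h. The 4 WT libraries without ligand had 66.3, 55.9, 41.7 and 67.7 CPM of Acod1. With LPS they had 9244, 7882, 8210 and 8277 CPM, and with R848 4479, 3914, 4561 and 4891 CPM. The 3 treatments did not overlap, and every library with LPS lay above every library with R848. LPS raised Acod1 146-fold (95% interval 116 to 184), a log2 fold change of 7.19 ± 0.16 (SE) with an adjusted p of 2.15e-16 by edgeR's quasi-likelihood test. R848 raised it 78.6-fold (63.0 to 98.0), 6.30 ± 0.15 on the log2 scale, with an adjusted p of 8.23e-16 by the same test. Most of the transcriptome moved in these comparisons: 61.6% of the 13986 genes passed for LPS and 56.7% for R848. By size, Acod1 ranked 75 from the top with LPS and 56 with R848. At these doses the level with LPS was 1.86-fold that with R848 (log2 0.90 ± 0.12, edgeR adjusted p = 2.68e-05), a comparison in which 21% of genes passed.

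Scaled to exonic length, so that genes can be ranked by level, Acod1 stood at rank 1875 of 13952 genes in WT without ligand, 19 with R848 and 8 with LPS. Its reads made up 0.00684% of all counts in WT without ligand and 0.701% with LPS. In LynKO the ranks were 5214, 24 and 11, and the shares 0.00205% and 0.600%.

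**Figure D1:**
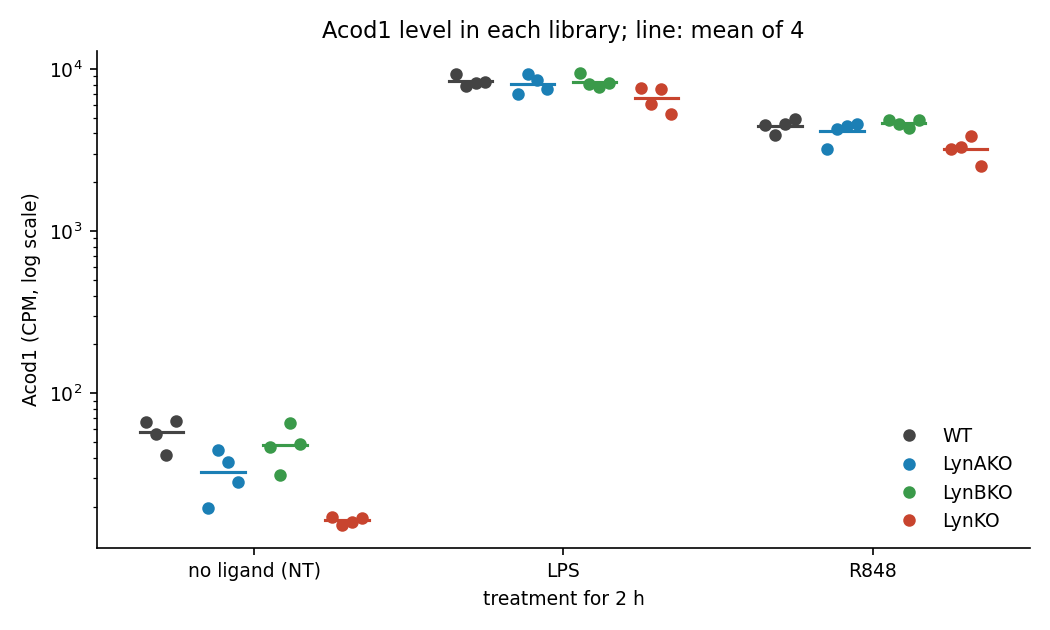
Acod1 level (CPM, log scale) in each of the 48 libraries, by treatment and genotype, with a line at the mean of 4. The NT libraries lie between 15.3 and 67.7 CPM and the ligand-treated ones between 2509 and 9385 CPM, with LynKO lowest under each treatment.

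The response kept its order in the mice lacking a single isoform. In LynAKO the libraries without ligand held 19.6, 44.9, 37.9 and 28.5 CPM. LPS took them to 7039, 9357, 8545 and 7519 CPM, and R848 to 3211, 4264, 4465 and 4585 CPM. LPS therefore raised Acod1 by 7.95 ± 0.25 in LynAKO (247-fold, edgeR adjusted p = 2.7e-14), where 60.7% of genes passed. R848 raised it by 6.99 ± 0.24 (edgeR adjusted p = 1.39e-13), with 56% of genes passing. In LynBKO the NT libraries held 46.9, 31.2, 65.9 and 48.4 CPM, the LPS libraries 9385, 8089, 7747 and 8138 CPM, and the R848 libraries 4840, 4584, 4306 and 4865 CPM. The LynBKO changes were 7.44 ± 0.19 for LPS (173-fold, edgeR adjusted p = 8.14e-16, 67.3% of genes passing) and 6.59 ± 0.18 for R848 (adjusted p = 3.19e-15, 63.5%). In no genotype did a library with R848 reach the lowest one with LPS.

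The margin of LPS over R848 was of like size in all 4 genotypes. On the log2 scale it was 0.90 ± 0.12 in WT, 0.96 ± 0.18 in LynAKO (edgeR adjusted p = 0.00113), 0.84 ± 0.14 in LynBKO (adjusted p = 0.000205) and 1.05 ± 0.12 in LynKO (adjusted p = 1.51e-05). The shares of genes that passed in the last 3 were 17.6%, 26.5% and 15.9%. Differences of this margin between genotypes were not tested.

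In LynKO macrophages Acod1 was lowest under every treatment, by far the most so before ligand. The LynKO libraries without ligand held 17.2, 15.3, 16.1 and 17.0 CPM, from 325 to 362 reads each. With LPS they held 7593, 6107, 7483 and 5260 CPM, and with R848 3216, 3313, 3848 and 2509 CPM. All 4 LynKO libraries lay below every WT library of the same treatment, and without ligand also below every LynAKO and LynBKO library. The group mean was 28.4% of WT in NT (16.4 ± 0.866 against 57.9 ± 12.0 CPM), 78.7% with LPS (6611 ± 1126 against 8403 ± 586 CPM) and 72.2% with R848 (3221 ± 550 against 4461 ± 406 CPM). The log2 differences from WT were -1.80 ± 0.22, -0.33 ± 0.10 and -0.47 ± 0.12 in that order. These values chose the gene, so they carry no test.

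The larger ratio in LynKO and its lower final level are the same 3 means read in different ways. LPS over NT was 400-fold in LynKO (log2 8.64 ± 0.17) and 146-fold in WT, and R848 over NT was 194-fold (7.60 ± 0.16) and 78.6-fold. The LynKO response exceeded the WT response by 1.47 ± 0.24 on the log2 scale for LPS and by 1.35 ± 0.24 for R848. In CPM gained, however, LPS added 6594 in LynKO and 8345 in WT, and R848 added 3205 and 4403. So the LynKO cells had the larger ratio and the smaller gain.

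**Figure D2:**
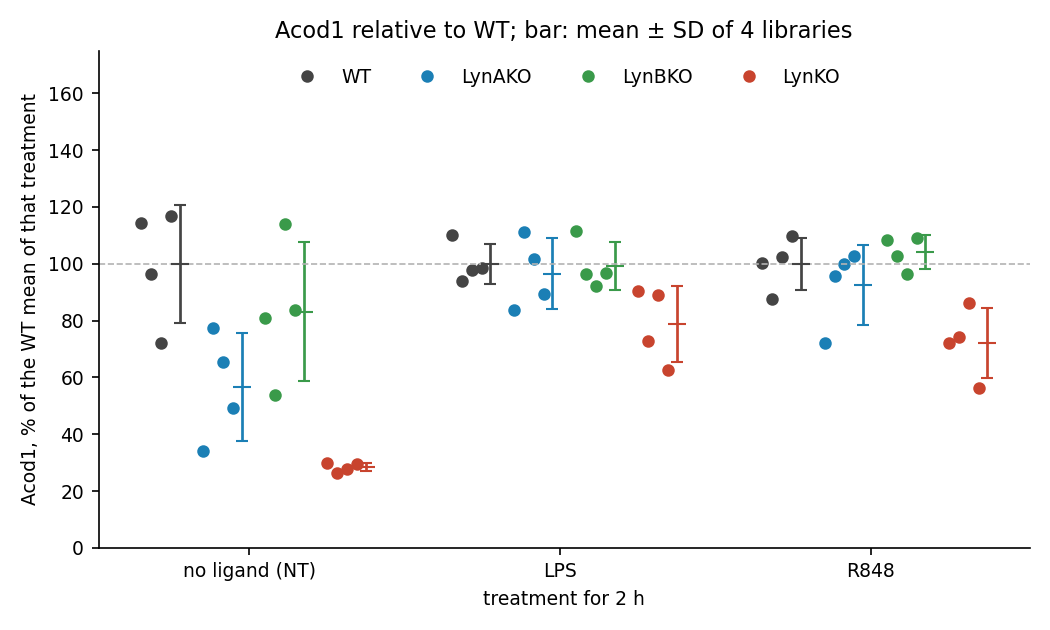
Acod1 in each library as a percentage of the WT mean of the same treatment, with the mean ± SD of 4 libraries beside each group. LynKO means are 28.4%, 78.7% and 72.2% for NT, LPS and R848, and the LynAKO mean is 56.5% in NT and over 90% with either ligand.

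Taken mouse by mouse, where a replicate number stands for a mouse, the ratio of LPS to NT in WT was 139, 141, 197 and 122. The LynAKO mice had ratios of 358, 209, 226 and 264, and in LynKO 441, 398, 464 and 309. All LynKO and LynAKO mice had a ratio above every WT mouse, and the LynAKO and LynKO mice overlapped. For R848 the ratios were 67.6, 70.0, 109 and 72.2 in WT, 164, 95.04, 118 and 161 in LynAKO, and 187, 216, 238 and 147 in LynKO. Here LynAKO mouse 2 fell below WT mouse 3. Within each sex the LynKO minus WT difference in NT was -1.90 for 2 males against 2 and -1.67 for 2 females against 2. With LPS the sexes gave -0.33 and -0.39, and with R848 -0.36 and -0.60.

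The single-isoform knockouts were not used in choosing the gene, but the WT libraries they are compared with, at rest and with ligand, were. LynAKO had a lower resting level that did not pass over all genes. In LynAKO 3 of 4 NT libraries lay below the lowest WT library, and the mean of 32.7 CPM was 56.5% of WT. The log2 difference was -0.82 ± 0.21 (95% interval -1.25 to -0.39). It did not pass over all genes, with an edgeR adjusted p of 0.426 (unadjusted 0.000803), in a comparison where 0.0286% of genes passed. With all 48 libraries in a joint model the difference was -0.82 and passed with an adjusted p of 0.0464. In LynBKO 1 of 4 libraries lay below the WT range, at a mean of 83.1% of WT (48.1 ± 14.2 CPM). That difference was -0.27 ± 0.21 (-0.70 to 0.16, edgeR adjusted p = 0.588, 0.0644% of genes passing). It was -0.11 without LynBKO mouse 2, -0.18 without WT mouse 4, -0.47 without LynBKO mouse 3 and -0.41 without WT mouse 3. LynAKO and LynBKO differed from each other by -0.55 ± 0.21 (edgeR adjusted p = 0.584). In that last comparison edgeR called 0 genes (0%), 1173 genes had an unadjusted p under 0.05, and DESeq2 called 1.

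With ligand, Acod1 in both single-isoform knockouts stayed close to WT. With LPS the log2 differences from WT were -0.05 in LynAKO (-0.26 to 0.17) and -0.01 in LynBKO (-0.22 to 0.21). With R848 they were -0.11 (-0.36 to 0.14) and 0.06 (-0.19 to 0.31). None of the 4 passed (edgeR adjusted p from 0.991 to 1), and their groups overlapped. Few genes passed in these comparisons: 0.0215% and 0.0358% with LPS, and 0.00715% and 0% with R848, where edgeR called 0 genes for LynBKO, 636 had an unadjusted p under 0.05 and DESeq2 called 15. The widest of these intervals still holds a fall of 0.36 in log2. As a difference of responses, LynAKO exceeded WT by 0.77 ± 0.24 for LPS (0.29 to 1.25, unadjusted p = 0.00247) and by 0.71 ± 0.24 for R848 (0.23 to 1.19, unadjusted p = 0.00495). Neither passed over all genes, with an edgeR adjusted p of 1 in each. edgeR called 0 genes (0%) in both contrasts, where 366 and 328 genes had an unadjusted p under 0.05 and DESeq2 called 0 and 2. LynBKO exceeded WT by 0.26 ± 0.24 and 0.33 ± 0.24 (edgeR adjusted p = 1 for both). Leaving out 1 replicate number at a time moved these from 0.11 to 0.48 and from 0.17 to 0.55. They were lowest without LynBKO number 2 and highest without LynBKO number 3. By their sex labels, these 2 numbers are not the same mouse in NT and with ligand. In the LynBKO contrasts edgeR again called 0 genes, where 458 and 430 had an unadjusted p under 0.05 and DESeq2 called 0 and 1.

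**Figure D3:**
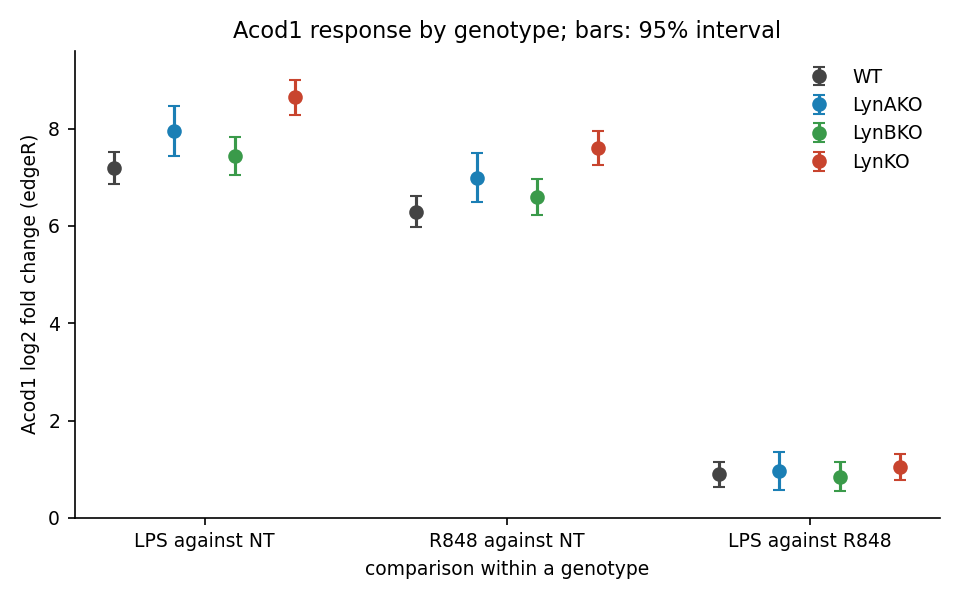
Acod1 log2 fold change within each genotype for LPS against NT, R848 against NT and LPS against R848, with 95% intervals from edgeR. LynKO lies highest for both ligands against NT, at 8.64 and 7.60, while LPS against R848 spans 0.84 to 1.05 over the 4 genotypes.

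Ordered by mean log2 level, the 12 groups fell into 3 tiers, LPS above R848 above NT. The step from the lowest R848 group, LynKO, to the highest NT group, WT, was 5.80 in log2. Within the LPS tier WT, LynBKO and LynAKO followed each other by 0.01 and 0.04, less than their SD, and within the R848 tier LynBKO, WT and LynAKO by 0.06 and 0.12. LynKO came last in both tiers, 0.30 and 0.36 below LynAKO, with overlapping ranges. In the NT tier WT and LynBKO differed by less than their SD, LynAKO lay 0.57 below LynBKO with overlapping ranges, and LynKO lay 0.92 below LynAKO with no overlap.

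Some cell type markers were lower in LynKO than in WT, without ligand and with either ligand. The summed macrophage markers ranged from 35112 to 43135 CPM in WT without ligand and from 22406 to 25175 CPM in LynKO, and most of that sum is Lyz2, the lysozyme gene, at 30518 and 17662 CPM. With LPS the summed macrophage markers ranged from 31294 to 37220 CPM in WT and from 20725 to 24219 CPM in LynKO. With R848 they ranged from 32461 to 35454 and from 19606 to 25013 CPM. Without ligand 3 of 8 macrophage markers were lower and none higher, where 4.47% of all genes were lower and 5.43% higher. The 11 neutrophil markers summed to 25.6 to 52.2 CPM in WT and 13.4 to 20.3 CPM in LynKO. Of the 7 tested, 1 was lower: Mmp8, a collagenase of neutrophil granules, at 34.0 and 11.4 CPM. Ly6g, the defining marker of mouse neutrophils, had no count in the WT libraries without ligand. Without ligand, 1 of the 11 neutrophil markers had no count in WT and 0 had none in LynKO. With either ligand these numbers were 1 and 2. None of the 5 tested dendritic cell markers passed by edgeR without ligand, and their median difference went the other way, at 0.59. The 6 dendritic cell markers summed to 0.698 to 0.973 CPM in WT and 0.926 to 2.27 CPM in LynKO. Neither of the 2 tested stromal markers passed, with a median difference of -1.87. The 4 stromal markers summed to 0.256 to 3.33 CPM in WT and 0.0975 to 0.724 CPM in LynKO. The part of these markers in the Acod1 difference was not tested.

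Around Acod1, genes of 5 lists were read from the same fits. The first holds the enzymes and carriers that make its substrate or break itaconate down. Of 14 listed, 12 were tested, and in WT with LPS 3 were higher and 4 lower, where 31.5% of all genes were higher and 30% lower. Slc25a10, the dicarboxylate carrier, rose by 0.63, and Cs, citrate synthase, rose by 0.56. Mut, methylmalonyl-CoA mutase, fell by 0.44, and Suclg1, a subunit of succinyl-CoA ligase, fell by 0.29. The call of Suclg1 was lost without WT mouse 2 (edgeR adjusted p = 0.0966). With R848 2 were higher and 3 lower, where 30% and 26.7% of all genes were: Slc25a10 rose by 0.64, Auh, a hydratase of leucine breakdown, fell by 0.49, Cs rose by 0.42 and Mut fell by 0.34.

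The citric acid cycle list of 22 genes, which shares some members with the first, had a median log2 change of 0.08 with LPS against -0.03 over all genes. Of the 22, 7 were higher and 4 lower with LPS, close to or under the 31.5% and 30% of all genes. With R848 7 were higher and 5 lower, against 30% and 26.7%. Dld and Dlst, subunits of the oxoglutarate dehydrogenase complex, rose by 1.05 and 0.94 with LPS and by 0.93 and 0.77 with R848. Idh2, mitochondrial isocitrate dehydrogenase, fell by 0.43 with LPS, and Idh3g, a subunit of the NAD-dependent enzyme, fell by 0.34 with R848. Sdha, the catalytic subunit of succinate dehydrogenase, was at 0.10 with LPS (edgeR adjusted p = 0.252) and 0.08 with R848 (0.336).

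The split of these 2 lists turns with the scaling. When libraries were scaled by their total counts, the median of all genes moved to -0.54 with LPS and -0.39 with R848. The citric acid cycle then had 2 genes higher and 18 lower with LPS and 2 and 13 with R848, and the handling list 0 and 10, and 0 and 9. Over all genes the count went from 4407 higher and 4202 lower to 2380 and 7930 with LPS, and from 4199 and 3736 to 2468 and 6809 with R848. Sdha turned to lower, at -0.42 with LPS, and Cs stood at 0.05 (edgeR adjusted p = 0.563). Slc25a10 stood at 0.11 with LPS (edgeR adjusted p = 0.424) and 0.27 with R848 (0.0617), and Cs at 0.05 with R848 (0.553), so neither passed. Acod1 itself was at 6.68 with LPS and 5.93 with R848 in WT under that scaling.

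**Figure D4:**
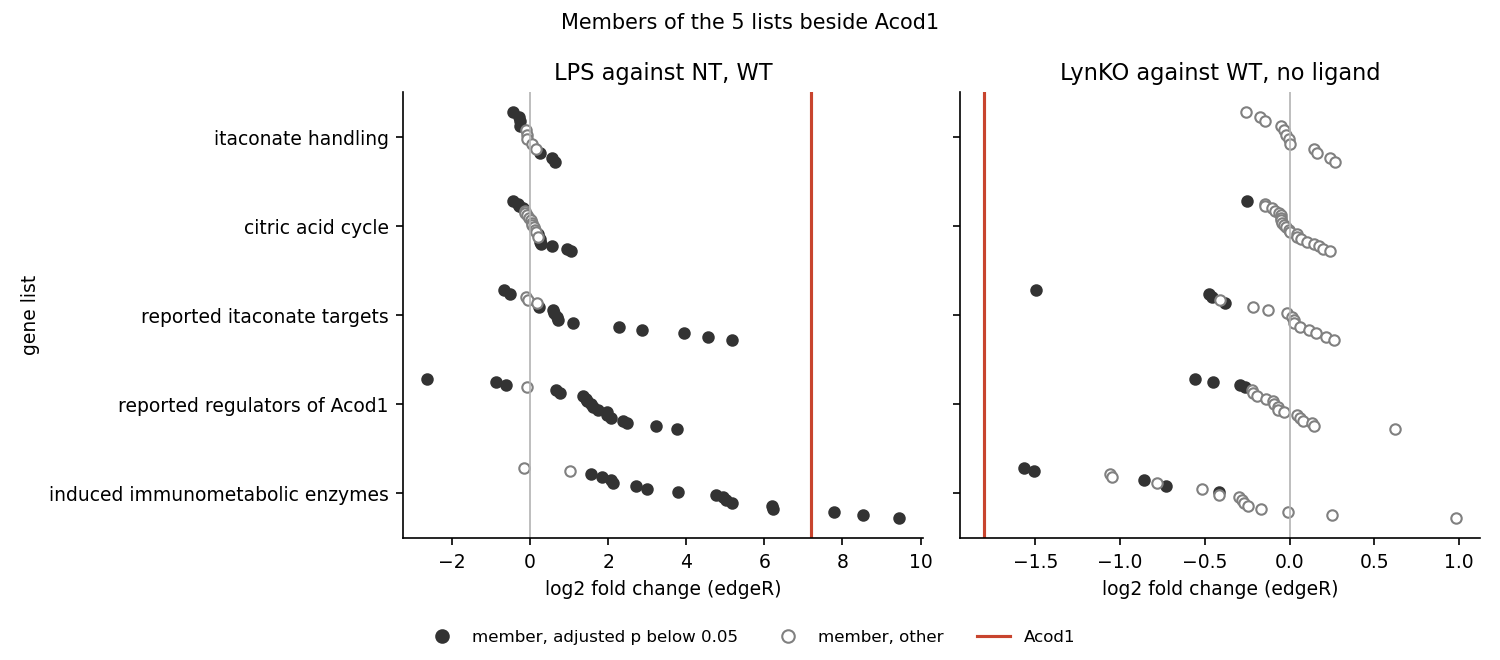
Log2 fold changes of the tested members of the 5 lists, 1 point per gene, for LPS against NT in WT (left) and LynKO against WT without ligand (right), with filled points for an adjusted p under 0.05 and a red line at Acod1. At 7.19 on the left Acod1 lies beyond all but a few enzymes, and at -1.80 on the right it lies below every member.

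Genes reported to regulate Acod1 mostly rose with ligand. Of 19, 15 were higher and 3 lower with LPS, and 12 higher and 4 lower with R848. Over all genes 31.5% were higher and 30% lower with LPS, and 30% and 26.7% with R848. Irf1, an interferon regulatory factor that drives Acod1, rose by 3.75 with LPS and 1.59 with R848. The NF-kB subunits Nfkb1 and Rel rose by 3.23 and 2.47 with LPS and by 2.85 and 2.48 with R848. Tfeb, a lysosomal transcription factor, fell by 2.65 with LPS, and Ifnar1, a chain of the type I interferon receptor, rose by 1.69 with R848. Of the receptors, Cd14 rose by 1.74 and 1.52, Tlr7 rose by 0.67 and 0.47, and Tlr4 fell by 0.88 and 0.34, with LPS and R848 in that order. The fall of Tlr4 with R848 was lost without WT mouse 3 (edgeR adjusted p = 0.0783) or 4 (0.0867). Under total-count scaling Tlr7 did not pass with either ligand (edgeR adjusted p = 0.094 and 0.265).

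Proteins reported as modified or induced by itaconate, and NRF2 pathway genes among them, formed a list of 16. With LPS 11 were higher and 2 lower, and with R848 11 and 1, where 31.5% and 30% of all genes were higher and lower with LPS and 30% and 26.7% with R848. Under total-count scaling the LPS split was 6 and 6. Slc7a11, the cystine carrier, rose by 5.16 with LPS and 5.39 with R848. Nfkbiz, which encodes the inhibitor-like factor IkB-zeta, rose by 4.56 and 5.50, Nlrp3, the inflammasome sensor, by 3.95 and 4.18, and Tet2, a DNA dioxygenase, by 2.86 and 2.82. Of 18 tested enzymes of the activated macrophage 16 were higher and none lower with LPS, and 14 were higher with R848. Their median log2 change was 4.28 with LPS and 2.47 with R848, below the 7.19 and 6.30 of Acod1, which 3 of them exceeded. Ptgs2, which makes prostaglandin H2, rose by 9.45 and 9.27, Nos2, the nitric oxide synthase, by 8.53 and 6.91, and Ch25h, cholesterol 25-hydroxylase, by 7.78 and 7.42. Rsad2, or viperin, rose by 6.21 with LPS, and Ptges, a prostaglandin E synthase, rose by 5.80 with R848.

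Between LPS and R848 in WT, the median log2 difference was 0.28 over the regulators and 0.43 over the enzymes, against 0.90 for Acod1 and -0.03 over all genes. Of the 19 regulators 9 were higher with LPS and 2 lower in WT, against 10.9% and 10% of all genes, led by Stat2 (2.97), Irf7 (2.53) and Irf1 (2.16). Of the 18 enzymes 9 were higher and none lower, led by Rsad2 (6.04), Cmpk2 (5.64), Upp1 (1.77) and Nos2 (1.61). DESeq2 did not call Nos2 there (adjusted p = 0.346). Of the 16 itaconate targets 2 were higher and 6 lower, with Gclc at -0.97, Nfkbiz at -0.94, Hmox1 at -0.89 and Gclm at -0.82. In the citric acid cycle and handling lists edgeR called 0 genes, where 4 and 1 had an unadjusted p under 0.05 and DESeq2 called 3 and 1, all higher.

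Between LynKO and WT without ligand, where 5.43% of all genes were higher and 4.47% lower, the calls in the lists were all lower. They were 4 of 19 regulators, 4 of 16 targets, 5 of 18 enzymes and 1 of 22 citric acid cycle genes. Among regulators these were Cebpb (-0.56), which drives Acod1 in myeloid cells, Tlr7 (-0.45), Irf1 (-0.29) and Nfkb1 (-0.26). The receptor genes Tlr4 and Cd14 stood at 0.06 and -0.07 (edgeR adjusted p = 0.789 and 0.663). Among targets they were Slc7a11 (-1.49, edgeR adjusted p = 2.55e-05), Nlrp3 (-0.47), Gclm (-0.46), which encodes a subunit of the glutathione-making ligase, and Nfe2l2 (-0.38), which encodes NRF2. Among enzymes they were Cp, ceruloplasmin (-1.56), Arg2, the mitochondrial arginase (-1.51, edgeR adjusted p = 7.72e-05), Sod2, the mitochondrial superoxide dismutase (-0.86, edgeR adjusted p = 3.44e-06), Ass1 (-0.73) and Gch1 (-0.42). Sdhd, a membrane subunit of succinate dehydrogenase, was at -0.25. None of these reached the -1.80 of Acod1. In the handling list edgeR called 0 of 12, with 3 at an unadjusted p under 0.05, and DESeq2 called 0.

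Several of these calls did not hold under every alternative. Tlr7 was lost without WT mouse 1 or LynKO mouse 4 (edgeR adjusted p = 0.0635 and 0.0739), and Irf1 and Sdhd without WT mouse 4 (0.0669 and 0.0518). Gch1 was lost without WT mouse 1, LynKO mouse 1 or LynKO mouse 3 (0.0723, 0.0671 and 0.0546). Cp was lost without WT mouse 1 or 2, any LynKO mouse, LynAKO mouse 2 or LynBKO mouse 4, with adjusted p from 0.0518 to 0.252. It was also lost with the replicate block (0.0802), with sex as a covariate (0.0508) and under total-count scaling (0.0511), where Irf1 was lost too (0.0549). The joint model of 48 libraries ended the calls of Ass1 (0.0575) and Tlr7 (0.102). Cebpb, Nfkb1, Slc7a11, Gclm, Nfe2l2, Arg2 and Sod2 passed under each alternative that was run. Without the 2 libraries that hold both sexes' transcripts Nlrp3, Tlr7 and Cp were lost (edgeR adjusted p = 0.053, 0.091 and 0.101).

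Some list members also differed between LynKO and WT with ligand. With LPS, where 4.43% of all genes were higher and 4.06% lower, 5 were lower and 1 higher. They were Irf1 (-0.42, edgeR adjusted p = 0.00139), Rela (-0.31), Slc7a11 (-1.05), Arg2 (-0.84) and Sod2 (-0.30), with Idh2 higher (0.38). Irf1, Slc7a11 and Arg2 passed under each alternative, while Rela was lost without WT mouse 1 or LynKO mouse 2, Idh2 without WT mouse 1, WT mouse 3 or LynKO mouse 4, and Sod2 without WT mouse 1 or 3 or LynKO mouse 2, 3 or 4. Total-count scaling ended Rela and Sod2 (edgeR adjusted p = 0.0706 and 0.0675). With R848, where 3.19% were higher and 2.74% lower, 6 were lower: Irf1 (-0.37), Rel (-0.48), Tlr7 (-0.64), Slc7a11 (-1.06), Nlrp3 (-0.36) and Arg2 (-0.72). Without WT mouse 3 or WT mouse 4, all of these but Arg2 were lost, with edgeR adjusted p from 0.0675 to 0.117. Each LynKO mouse left out ended between 2 and 4 of them, and Tlr7 was also lost without WT mouse 1 or 2 or any LynBKO mouse. Total-count scaling ended Irf1, Rel, Tlr7 and Nlrp3 (edgeR adjusted p from 0.0591 to 0.0902), and the joint model Nlrp3 (0.0908). Same-numbered WT and LynKO libraries deviated together with R848 (correlations of 0.11 to 0.363). With the replicate block there, 6 targets, 5 regulators and 3 enzymes were lower, 1 regulator and 1 citric acid cycle gene were higher, and over all genes 802 were higher and 951 lower, against 446 and 383 without it. The handling list had 0 calls by edgeR with either ligand, 1 and 2 members at an unadjusted p under 0.05, and 0 by DESeq2.

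Genes whose 12 group means followed those of Acod1 most closely were named from 9371 genes with at least 5 CPM, by Pearson's r of log2 means. The 10 nearest were Mmp14, Tnfaip2, Sod2, Bcor, Mllt6, Mfsd7a, Ift57, Lcp2, Gas7 and Pnrc1, with r from 0.9991 down to 0.9978 over 12 groups. Such values are common here: 290 genes had an r of at least 0.99, since all share the libraries and the step from NT to ligand, and the median over all compared genes was 0.193. Mmp14, a membrane-bound matrix metalloprotease, stood at 12.7, 446 and 285 CPM in WT (NT, LPS and R848) and at 4.11, 315 and 218 CPM in LynKO. Tnfaip2, a TNF-induced gene, stood at 329, 6741 and 4214 CPM in WT and 180, 5177 and 3263 CPM in LynKO. Sod2 stood at 140, 1937 and 1517 CPM in WT and 76.7, 1548 and 1238 CPM in LynKO. All 10 share with Acod1 a LynKO mean below the WT mean under each treatment, and they were picked for likeness of such means. For the 3 described, the log2 differences of LynKO from WT with R848 were -0.39 for Mmp14, -0.37 for Tnfaip2 and -0.29 for Sod2. The same libraries picked these genes, so no test of that difference is given for them here.

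By size of change as well as shape, the root mean square difference of the centred group means, the 5 nearest were Bcl2a1d (0.369), Bcl2a1a (0.374), Plat (0.401), Saa3 (0.406) and Cd40 (0.432). Bcl2a1d and Bcl2a1a are near-identical copies whose reads may be split between them, so their values are uncertain. Saa3, an acute-phase protein, stood at 23.0, 2136 and 1333 CPM in WT and 9.63, 1135 and 930 CPM in LynKO. Of the 10 genes nearest by r, 9 were matched in the promoter table. The NF-kB consensus was found in 2, the ISRE core in 2 and the GAS element in 3, where 8.46%, 3.44% and 8.3% of all promoters hold them. The GGAAATTCC and the TATAAA of Acod1 were in none of the 9. As 0.317% and 13.6% of all promoters hold these, their absence from so few genes says little.

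**Figure D5:**
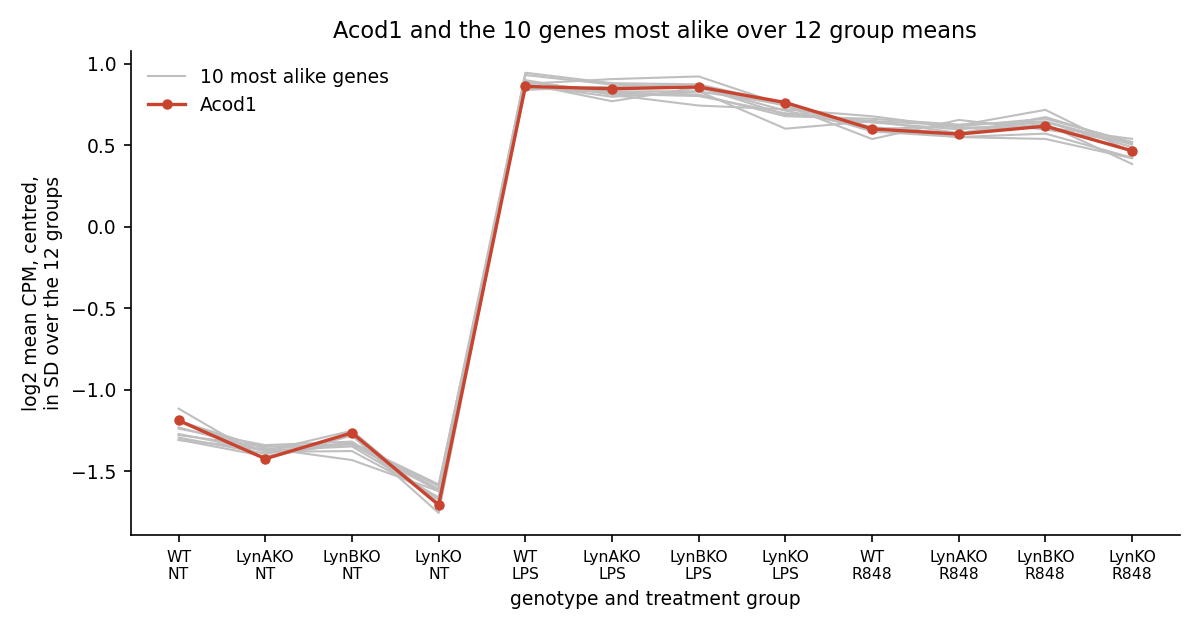
Log2 group means of Acod1 (red) and of the 10 genes with the highest Pearson's r to it (grey), centred and divided by their SD over the 12 groups. All lines step up from NT to ligand, with LynKO lowest in each treatment for Acod1, and r is at least 0.9978.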

How the data were processed

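RNA of 48 cultures from 16 mice was sequenced after polyA selection. The submitters' processing notes list Trimmomatic 0.36, STAR 2.5.2b, Subread 1.5.2 with featureCounts, DESeq2 and build GRCm38. Which annotation release was counted, and whether by strand, is not given in the sources used. The authors deposited raw counts per gene, used for all tests, and variance-stabilised values on a log2 scale, which were not tested. Total counts were 14974764 to 23321447 per library.

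A filter by filterByExpr on the groups (at least 10 reads, 15 in total) left 13986 genes. They were scaled by TMM within each fit and tested with edgeR 4.0.16 in R 4.3.3 (quasi-likelihood, Benjamini-Hochberg over all genes, threshold 0.05). Ligands were compared within the 12 libraries of 1 genotype, genotypes within the 16 of 1 treatment, and responses over all 48. These fits held no term for the mouse, so libraries of 1 mouse were treated as independent in ligand and response comparisons. For Acod1, 23 comparisons were tested and 17, which involve LynKO levels or responses and chose the gene, were described. CPM shown were scaled by TMM over all 48 libraries. Fold ratios of a mouse use these CPM, and its log2 ratios use log2 CPM with a prior count of 2. The gene and the lists were chosen with earlier results of these data known. List members were named by size of change, up to 4 per list, plus Irf1, Tlr4, Cd14, Tlr7 and Sdha where shown, and Gch1, named after its value was seen. Some genes that this rule names are not reported here.

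The replicate number stands for the mouse within a genotype, by the labels. Same-numbered libraries deviated together in WT, LynAKO and LynKO (correlations of at least 0.0494 and best with their own number in 4 of 4) but in LynBKO NT libraries matched their own number with either ligand in 1 of 4, against 4 of 4 between LPS and R848. On simulated data with 13986 genes, edgeR recovered 84% of genes changed 2-fold for LPS in WT and 78% for the LPS response of LynAKO minus WT, with 7 and 11 false calls. Only 200 genes were changed there and the libraries were drawn independently, unlike these data. The recovery and false calls of the real comparisons may therefore differ. Alternatives were DESeq2 1.42.0, RLE factors, total-count scaling (added after seeing the data), no filter, sex, replicate block, a joint model of all libraries, and fits on the groups of a contrast alone. Fits were also repeated with each replicate number of a genotype, or the 2 libraries of mixed sex, left out. A left-out number is called a mouse in the text, which for LynBKO holds only within 1 treatment.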

Additional observations from a re-analysis of the deposited data

Results flagged for a closer look

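The R848 response of Acod1 in WT mouse 3, a log2 ratio of 6.77, stood apart from the other WT mice at 6.08, 6.13 and 6.17. The gap was wider than Dixon's 95% limit for 4 values. Mouse 3 had the lowest Acod1 level of WT without ligand, 41.7 CPM, and an R848 level of 4561 CPM inside the range of the others. Of 20 groups of 4 values checked this was the only such value, and chance flags about 1 in 20. Without WT mouse 3 the R848 change in WT was 6.13.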

How the results depend on the processing

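Of 736 refits of the Acod1 comparisons, 722 kept the direction and the side of the threshold or stayed within the spread of replicates, and 14 did not. Under total-count scaling the described LynKO changes moved to 8.19 for LPS and 7.30 for R848, and the LynBKO difference from WT with LPS turned to 0.026. With no filter on low counts 4 results passed, at nearly the same size as before. They were LynAKO against WT in NT at -0.82 (edgeR adjusted p = 6.41e-17), LynAKO against LynBKO in NT at -0.55, and the LynAKO minus WT responses at 0.76 for LPS and 0.71 for R848. The main fit gave the first an edgeR adjusted p of 0.426 (unadjusted 0.000803) from the same libraries. The difference was of nearly the same size in both fits while the p fell, so these passes are not read as differences. Why the p fell was not tested. In a joint model of 48 libraries LynAKO against WT in NT was -0.82 and passed (0.0464). With mice left out in turn, differences near 0 with LPS changed sign: LynBKO against WT ranged from -0.067 to 0.036 (positive without WT 1, LynBKO 2 or LynBKO 3), LynAKO against WT from -0.12 to 0.013 (without LynAKO 1) and LynAKO against LynBKO from -0.11 to 0.022 (without LynAKO 1 or LynBKO 1). The causes were not tested.

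With the replicate number as a block, LPS against NT was 7.21 in WT and 8.63 in LynKO, and no Acod1 call changed. Across genotypes the labels give no shared mouse or batch, though numbers 1 and 2 are male and 3 and 4 female except in LynBKO NT. All 4 same-numbered pairs of WT and LynKO libraries correlated at 0.11 or more with R848, but not with NT or LPS. WT and LynBKO libraries matched best by number in 4 of 4 with LPS. With the block LynAKO against WT in NT was -0.83 (adjusted p = 0.699) and LynKO against WT -1.81 with it.

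Among other genes, total-count scaling turned Sdha (-0.42 with LPS and -0.28 with R848). Of the 10 genes nearest to Acod1, 4 were shared when 48 libraries replaced the group means. Numbers of lower list members in LynKO ranged over alternatives from 3 to 9 enzymes and 3 to 7 regulators in NT (DESeq2 9 and 7), from 1 to 6 targets, 1 to 9 regulators and 1 to 6 enzymes with LPS (block 6 and 9 for the first 2, with 874 genes lower over all against 568), and from 0 to 6 targets, 0 to 5 regulators and 1 to 3 enzymes with R848. Depth limits the LynKO NT level most: their 325 to 362 Acod1 reads carry a counting error of 5.26% to 5.55%, as large as the CV of 5.27% between those libraries. In the other 11 groups the CV exceeded the counting error.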

Other observations

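Kctd12, the nearest protein-coding gene upstream of Acod1, 64339 bases away on the other strand (chr14:102976581-102982637, GRCm38), rose by 1.47 ± 0.11 with LPS in WT (edgeR adjusted p = 2.36e-09) and by 1.13 ± 0.11 with R848 (adjusted p = 1.02e-07). Its LynKO minus WT difference without ligand was -0.42 ± 0.11 (edgeR adjusted p = 0.0165). That call was lost without WT mouse 1, LynKO mouse 1 or LynKO mouse 4 (edgeR adjusted p = 0.063, 0.053 and 0.0622), and without the 2 libraries of mixed sex transcripts (0.0769). With R848 it was -0.32 (edgeR adjusted p = 0.0405), a call lost without WT mouse 3 or 4, LynAKO mouse 2, or LynKO mouse 1, 3 or 4, and under total-count scaling (0.114). With LPS it was -0.22 (adjusted p = 0.146) and passed without WT mouse 1 (0.0294).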
